A study of Mus musculus with 2 samples.

Results

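The genes described here are Mycn, Myc and Mycl, the MYC family of transcription factors, and Max, their shared partner, with the TOBF1 peaks around them. A peak was assigned to a gene when its midpoint fell inside the gene or no more than 100 kb outside it. This rule uses the position of a peak and not its score. The genes themselves were chosen with earlier results of these data known. The 4 genes stand among 21887 protein-coding genes on the chromosomes, and 10 of the 12012 chromosomal peaks (12181 in the whole list) fell into their windows. Peaks come from ChIP-Seq of R1/E mouse embryonic stem (ES) cells grown with serum and LIF, fixed with formaldehyde and DSG. In the TOBF1 library, TOBF1 (gene A830080D01Rik) expressed with a tag from a bacterial artificial chromosome (BAC) was recovered with an anti-GFP antibody. The input library, made with no antibody from cells with the same BAC construct, was not analysed here. The series holds 1 TOBF1 library, so no value has a replicate error, no comparison of conditions could be tested, and the depth in reads is unknown. Endogenous TOBF1 was not precipitated, and a clone number for the BAC line is not given in the sources used here.

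MYC proteins bind DNA as dimers with MAX through a basic helix-loop-helix leucine zipper, preferring the E-box CACGTG, and drive genes of growth, ribosome production and cell division. MAX also pairs with the repressors MNT, MGA and the MXD proteins, which compete for the same sites. In mouse ES cells Myc and Mycn act in part redundantly to keep the cells dividing and undifferentiated, whereas Mycl is best known from dendritic cells and small cell lung cancer.

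Mycn, Myc and Max each had TOBF1 peaks next to them and Mycl had none within 100 kb. Mycn had the highest peak of the 4 genes and Myc the most peaks. There were 3 peaks at Mycn, against 5 at Myc, 0 at Mycl and 2 at Max. The highest score, taken here as −log10 of a q-value, was 59.4 at Mycn, 37.0 at Myc and 19.7 at Max. None of the 10 peaks lay inside Mycn, Myc or Max themselves.

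**Figure D1:**
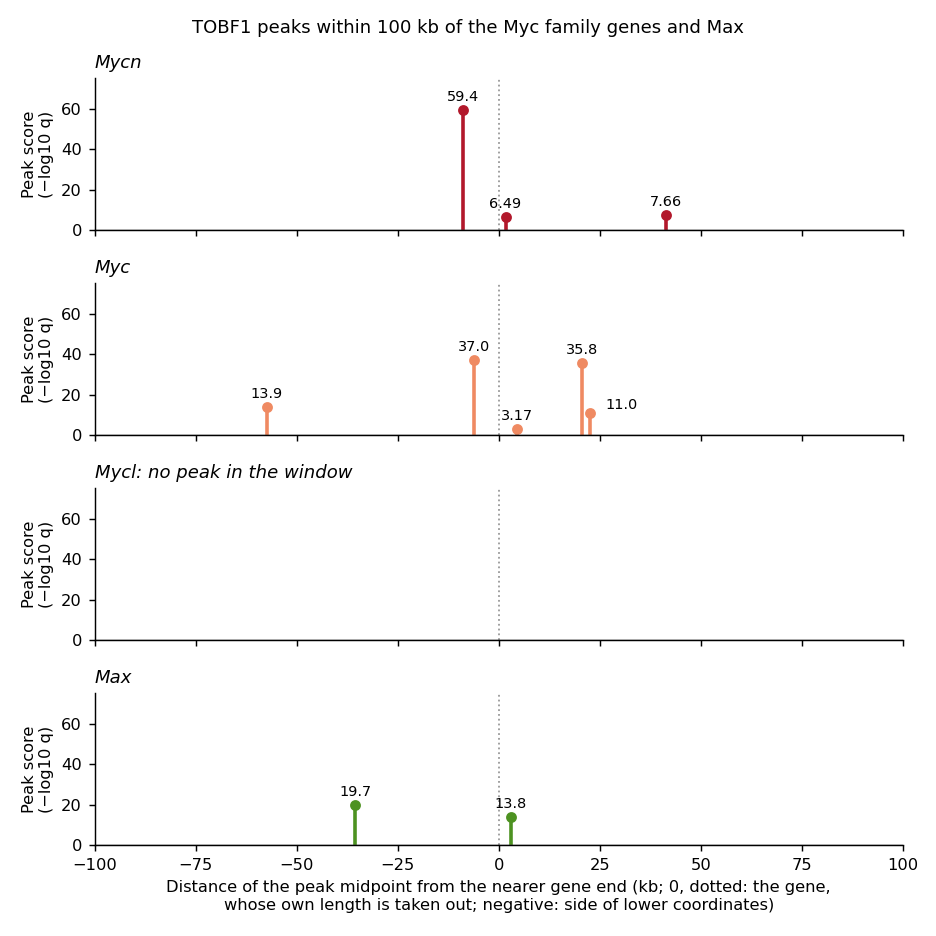
TOBF1 peaks around each gene. The x axis is the distance of the peak midpoint from the nearer gene end in kb, negative towards lower coordinates. Each stem's height is the peak's score (taken as −log10 q). Mycn and Myc each have a peak on both sides within 10 kb, the higher of the pair on the side of lower coordinates, and the panel of Mycl is empty.

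The start regions of Mycn, Mycl and Max held no peak. The stretches below come from their start regions, that of Mycn before the start and those of Mycl and Max across it. They lie in RefSeq promoters of build GRCm38.p6 (250 bases before to 50 after the start), and no TOBF1 peak overlapped any of the 3 promoters. Empty promoters do not set these genes apart, since only 14.8% of all protein-coding genes had a peak inside them or up to 1 kb outside. The share of all promoters overlapped by a peak was not counted. Capitals mark motifs picked after the sequences were read, searched on both strands: an E2F-type site (TTTGGCGC) in Mycn, the letters TATAAA in Mycl and the E-box CACGTG in Max. The Mycn stretch is chr12:12941977-12942039 and the Max stretch chr12:76962226-76962271, both on the minus strand, and the Mycl stretch is chr4:122995903-122995948 on the plus strand.
Mycn: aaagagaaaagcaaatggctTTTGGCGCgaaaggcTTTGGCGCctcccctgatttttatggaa
Mycl: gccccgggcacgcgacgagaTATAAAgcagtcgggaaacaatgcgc
Max: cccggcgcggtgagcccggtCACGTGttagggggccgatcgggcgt

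The Mycn promoter held 2 copies of the E2F-type site, which do not overlap and begin 183 and 168 bases before the start. That motif was found in 0.514% of 32851 promoters of the same length. The E-box of Max, the sequence that MAX itself binds, reaches across the start that the promoter table gives, beginning 3 bases before it. That start, position 76962248, lies inside the RefSeq gene span of Max given below. CACGTG was found in 7.15% of the promoters, and the promoters of Mycn and Mycl did not contain these letters. TATAAA was found in 13.6% of promoters and begins 8 bases before the start that the promoter table gives for Mycl, position 122995931, which lies inside the RefSeq gene span given below. For Myc, no promoter sequence was used here.

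Mycn (RefSeq gene 18109; mm10, chromosome 12, 12936093 to 12941836), the family member named for neuroblastoma, lies on the minus strand in a stretch with no other protein-coding gene within 100 kb. Its strongest peak (12927137 to 12927568, 432 bp wide) had a score of 59.4 and lay 8.74 kb below the lower end, which on this strand is beyond the end of transcription. It ranked 392nd of the 12012 peaks, so that 3.26% of peaks scored as high or higher, and 26th of the 461 peaks on chromosome 12. The second peak (12943406 to 12943661) had a score of 6.49 and lay 1.70 kb before the transcription start. The third (12983090 to 12983409) had a score of 7.66 and lay 41.4 kb before it. Those upstream of the gene both scored below the median of the whole list (9.97), and the downstream one stood far above it. No peak lay inside a neighbouring gene; the nearest annotated features were the pseudogene Gm48201, 5.76 kb from the second peak, and the non-coding gene Gm35208, 4.13 kb from the third. Ddx1, an RNA helicase gene and the nearest other protein-coding gene, was 236.1 kb from the third peak.

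Myc (gene 17869; chromosome 15, 61985341 to 61990361) also has no other protein-coding gene within 100 kb and had more peaks than Mycn, with lower highest scores. The 5 scores from lower to higher coordinates were 13.9, 37.0, 3.17, 35.8 and 11.0. Of the Mycn peaks 1 of 3 reached the list's median, against 4 of 5 at Myc. The strongest peak (61978941 to 61979325) lay 6.21 kb below the gene and ranked 1144th of all peaks. The next (62010797 to 62011121) lay 20.6 kb above the gene and ranked 1221st, and its neighbour (62012757 to 62012961) followed 1.90 kb further on. The weakest (61994917 to 61995051, 135 bp wide) lay 4.62 kb above the gene, and 95.0% of all peaks scored as high or higher. The fifth (61927812 to 61928048) lay 57.4 kb below the gene and closer to the pseudogene Gm18788 (34.9 kb). The strand of Myc is not given in the tables used here, so its sides are named by coordinate only. The difference between the highest scores, 59.4 at Mycn and 37.0 at Myc, has no error, since each is 1 peak of 1 library.

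Mycl (gene 16918; chromosome 4, 122995588 to 123002490) had no peak in its window, which also holds Mfsd2a, a transporter gene for lysophospholipids, and Trit1, a tRNA-modifying enzyme gene. The nearest peak (122837454 to 122837670, score 12.0) lay 158.0 kb below the gene, inside Ppt1, which encodes a lysosomal thioesterase. Among all protein-coding genes 41.0% had no peak within 100 kb, and for 28.1% the nearest peak was farther away than that of Mycl. An empty window was thus common in this list. A weak site below the caller's threshold would not be listed, and the depth to judge this is unknown.

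Max (gene 17187; chromosome 12, 76937269 to 76962323), the obligate partner, had 2 peaks of middling score. The nearer (76965159 to 76965347) had a score of 13.8 and lay 2.93 kb above the upper end, which on the minus strand is the side before the transcription start. The farther (76901587 to 76901916) had a score of 19.7 and lay 35.5 kb below the gene, inside Fntb, which encodes the beta subunit of protein farnesyltransferase, and inside the non-coding gene Gm46358. It may be counted as a peak of Fntb as well as of Max, and without it Max would keep the peak of 13.8 alone. At Mycn 1 of 3 peaks was above the list's median, while both Max peaks were above it.

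Set beside all protein-coding genes, the counts at these genes were moderate. At least 1 peak was found at 3 of these 4 genes, against 59.0% of all genes, whose windows held a median of 1 peak and a mean of 1.39. At least 3 peaks, the count of Mycn, were found at 16.3% of genes, at least 5, the count of Myc, at 5.79%, and at least 2, the count of Max, at 31.3%. Restricting the comparison to the 1181 genes with no protein-coding neighbour within 100 kb, as for Mycn and Myc, the shares were 18.7% and 6.86%. A highest score as high as that of Mycn was found at 3.56% of genes, as high as that of Myc at 10.3%, and as high as that of Max at 23.3%. The order of the genes by number within 100 kb (Myc, Mycn, Max, Mycl) differed from the order by highest score (Mycn, Myc, Max), and neither order carries an error. The order by number depended on the settings: among peaks at or above the list's median score Mycn had 1, Myc 4 and Max 2, and within 10 kb and within 500 kb Mycn and Myc were level. The 10 peaks had a median score of 13.8, against 9.97 for the whole list, and 7 of the 10 were at or above that median.

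**Figure D2:**
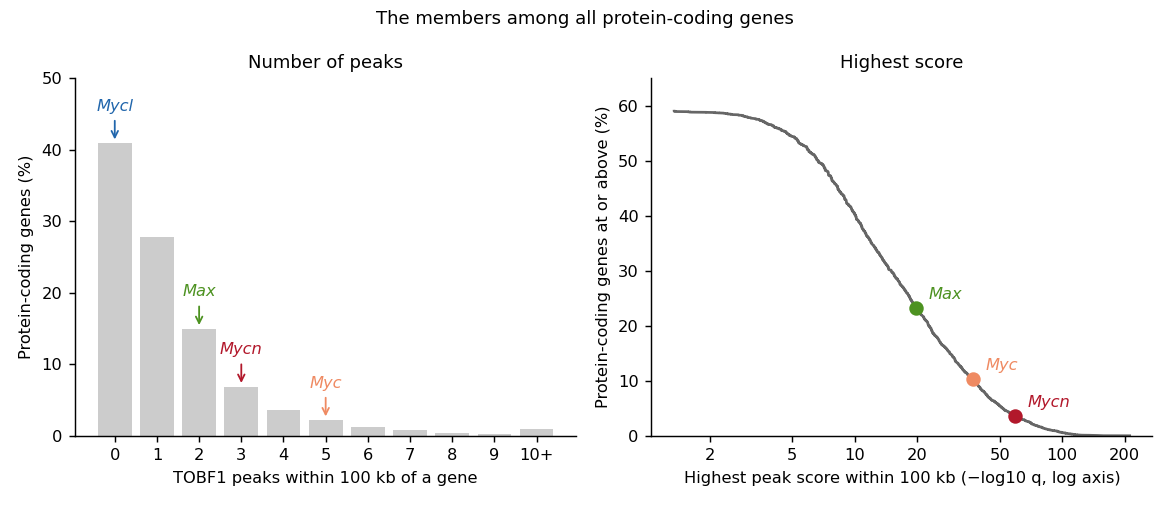
The left panel shows the percentage of 21887 protein-coding genes by number of TOBF1 peaks within 100 kb, with arrows at the counts of Mycn (3), Myc (5), Mycl (0) and Max (2); the right panel shows the percentage of genes whose highest score reaches each value on a log axis. Mycn lies farthest down the right-hand curve, at 3.56% of genes, and Myc farthest to the right in the left panel.

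Close to the genes, Mycn and Myc had a like arrangement. Each had 1 peak on each side within 10 kb and none inside, with scores of 59.4 and 6.49 at Mycn and of 37.0 and 3.17 at Myc. This arrangement was noticed after the positions were seen. The weaker peak of each pair scored below the list's median (9.97). With only peaks at or above that median, neither gene had a peak on both sides within 10 kb. At least 1 peak on each side within 10 kb and none inside was found at 0.461% of all protein-coding genes (101 of 21887). At least 2 peaks in the gene or within 10 kb, wherever placed, were found at 7.36% of them. A peak within 10 kb occurred at 3 of the 4 genes and at 21.6% of all genes, and a highest score within 10 kb as high as that of Mycn at 1.07% of all genes. Peaks inside the gene were found at 13.5% of all protein-coding genes, and at 3.69% of the 13270 no longer than Max (25055 bp), so that 0 of 4 is near that level. The nearest peaks, 1.70 kb from Mycn, 4.62 kb from Myc and 2.93 kb from Max, were closer than the median of 71.1 kb over all genes. That of Mycl, 158.0 kb away, was farther than this median. Such nearness was not rare, since 18.3% of all protein-coding genes had a peak inside them or up to 5 kb outside.

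Wider windows were examined after the counts were seen. Between 100 and 200 kb there were 5 more peaks at Mycn, 5 at Myc, 1 at Mycl and 0 at Max. At Mycn 4 of the 5 lay below the gene, between 116.1 and 151.7 kb away with scores from 8.11 to 13.4, and the fifth (13067387 to 13067637, score 32.0) lay 125.7 kb above it. At Myc all 5 lay above the gene, between 116.4 and 173.0 kb away with scores from 3.68 to 14.5, and inside Pvt1, the long non-coding RNA gene next to Myc. Within 200 kb the totals were thus 8 at Mycn, 10 at Myc, 1 at Mycl and 2 at Max, where all protein-coding genes had a mean of 2.45. At least 8 peaks were found at 4.13% of genes in that window and at least 10 at 2.19%. Within 500 kb Mycn and Myc had 10 peaks each, a count reached by 12.9% of genes, Mycl had 1 (94.2% of genes) and Max had 5 (50.9% of genes), so that Max gained 3 peaks and Myc none between 200 and 500 kb. The last peak inside the 100 kb limit lay 41.4 kb from Mycn, 57.4 kb from Myc and 35.5 kb from Max, and the first outside it lay 116.1 kb, 116.4 kb and 242.5 kb away, so small shifts of that limit change no count.

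**Figure D3:**
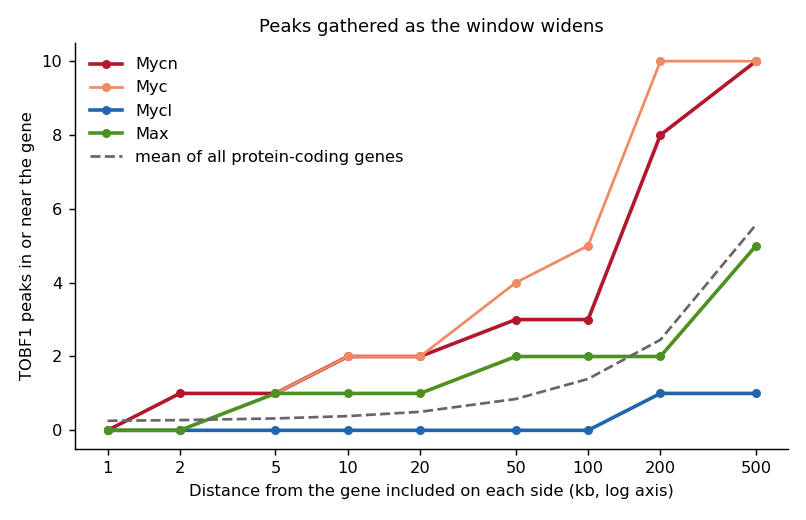
Number of TOBF1 peaks (y axis) in the gene or within the distance on the x axis (kb, log axis) for Mycn, Myc, Mycl and Max, with the mean of all protein-coding genes as a dashed line. Mycn and Myc run above the dashed line from 5 kb on, Mycl stays at 0 up to 100 kb, and Max meets the mean between 100 and 200 kb.

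Per length of sequence, peaks were denser in the windows of Mycn (14.6 per Mb), Myc (24.4 per Mb) and Max (8.89 per Mb) than on their whole chromosomes, which held 3.84 per Mb for chromosome 12 and 4.33 for chromosome 15. In the window of Mycl the density was 0, with 4.55 per Mb on chromosome 4. A whole chromosome is not a set of windows around genes. Counts within 100 kb as high as those of Mycn, Myc and Max were found at 16.3%, 5.79% and 31.3% of protein-coding genes. Peaks covered 0.490% of the Mycn window, 0.628% of that of Myc and 0.231% of that of Max. These are separate peaks, the closest pair being the 2 at Myc with midpoints 1.90 kb apart.

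The genes most like Mycn in how many peaks lay in the gene and at 0 to 10, 10 to 20, 20 to 50 and 50 to 100 kb were counted in 1 list of this 1 library. Of 21886 other protein-coding genes, 21 had the same counts in all 5 bins. Among those the nearest in highest score were Nucks1, with 53.4, and Gm37116 and Tsacc, which share a highest peak of 65.9.

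Around the family, within 10 kb, genes of the MAX network had peaks of low score, and those of MYC cofactors and of growth included higher ones. Within 100 kb this order did not hold, since Mga, a partner of MAX, then had the highest score of all 4 lists (114.1). Of 9 partner factors of MAX and MLX, 3 had a peak within 10 kb (33.3%, exact 95% interval 7.49 to 70.1%, counting error only), against 21.6% of all protein-coding genes. These were Mga (5.98), a MAX-binding scaffold of a Polycomb-type repressor complex, Mxd4 (4.20) and Mxi1 (3.41), repressors of the MXD family. All 3 scores were below the list's median. Within 100 kb the highest scores were 114.1 at Mga, 37.6 at Mlxip and 21.5 at Mxd3, while Mnt, Mxd1, Mlx and Mlxipl had no peak, so that 5 of 9 had one (55.6%), against 59.0% of all genes. Of 9 other factors of the same helix-loop-helix zipper class, 2 had a peak within 10 kb (22.2%), against 21.6% of all genes, namely Mitf (9.48), the pigment cell regulator, and its relative Tfec (4.07). Within 100 kb 7 of these 9 had a peak (77.8%, against 59.0% of all genes), with 27.1 at Tfeb and 23.8 at Tfe3 among the scores. The highest scores at Mycn, Myc and Max within 10 kb (59.4, 37.0 and 13.8) were above those at every gene of both lists. Within 100 kb they were not: Mga stood above Mycn, Mlxip above Myc (37.0), and Mxd3, Tfeb and Tfe3 above Max (19.7).

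Genes of MYC cofactors and turnover had a peak within 10 kb in 10 of 20 cases (50.0%, interval 27.2 to 72.8%), against 21.6% of all protein-coding genes, and within 100 kb in 15 of 20, where 59.0% of all genes had one. The highest was inside Skp2, which encodes an F-box protein that ubiquitinates MYC (42.1), followed by peaks in Usp7, a deubiquitinase gene (27.1), and Ruvbl1, an ATPase gene of chromatin remodellers (20.7), and near Actl6a, their actin-related subunit (15.4). Fbxw7, whose product marks MYC for degradation, was among the 10, while Trrap, Huwe1 and Ruvbl2 had none within 100 kb. Of 25 growth and nucleolar target genes of MYC, 11 had a peak within 10 kb (44.0%, interval 24.4 to 65.1%), against 21.6% of all genes, and 19 had one within 100 kb (76.0%, against 59.0%). The highest were at Nop58 (58.8), a core protein of box C/D small nucleolar ribonucleoproteins, the transferrin receptor gene Tfrc (23.0), and the nucleolar genes Npm1 (21.9) and Ncl (20.5). Npm1 had 13 peaks within 10 kb, and Ncl and Nop58 had 9 each; whether such crowded stretches give raised signal with any antibody was not tested. Hspd1 and Hspe1, adjacent chaperonin genes, share their 2 peaks. Cofactor genes had a median length of 28859 bp and target genes of 13354 bp, against 17169 bp for all protein-coding genes, and longer genes have wider windows. No test was made on any list, and no expression data were used here. The lists were chosen with earlier results of these data known, and their genes are not replicates. The intervals therefore serve as no test against the share of all genes.

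**Figure D4:**
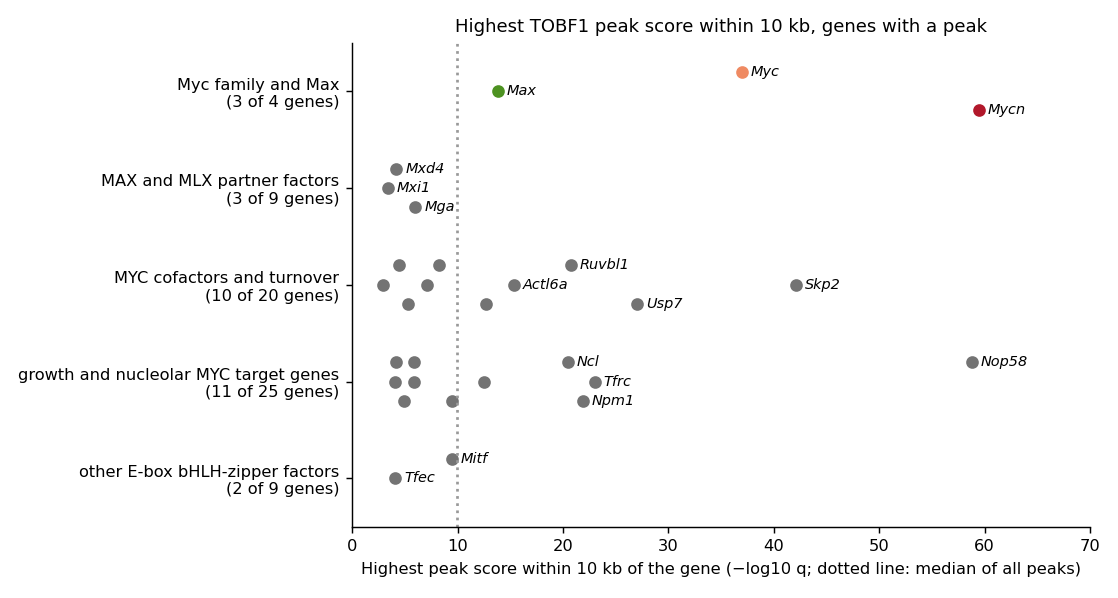
Highest TOBF1 peak score within 10 kb (x axis, taken as −log10 q) for each gene that has a peak there. Rows are gene lists with the number of such genes. The dotted line marks the median score of all peaks, 9.97, and small vertical offsets only separate points. The points of the MAX and MLX partner row lie left of the dotted line, while Mycn (59.4) and Nop58 (58.8) lie farthest to the right.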

How the data were processed

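The authors deposited 1 peak list of TOBF1 ChIP-Seq, giving each peak's position, a name and a score. The submitters' processing notes name cutadapt, Bowtie2, MACS2, bedtools and the mm10 build, with no versions or settings. Whether the input was the control of the peak call is not given in the sources used here. As for the unit, the deposited score was taken as −log10 of a q-value, because it is never negative and its lowest value is 1.30. It depends on depth and local background, and was used only within this list. Positions are counted from 1.

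Gene spans came from a RefSeq table of GRCm38.p6, whose chromosome positions are those of mm10, and strands and starts from the RefSeq promoter table, which matched 3 of the 4 genes. Distances run from the peak midpoint to the nearer gene end. The 63 genes of the 4 lists all matched. Members, lists and tests were chosen with earlier results of these data known. The named genes are the 4 members, genes holding one of their peaks, up to 4 genes per list by score within 10 kb, and the 3 genes with the distance profile most like Mycn. A few list genes named beyond these, chosen after their values were seen, are Fbxw7, Hspd1, Hspe1, Mlxip, Mxd3, Tfeb, Tfe3 and those named as lacking peaks. Ddx1, Ppt1, Mfsd2a, Trit1, Pvt1 and the nearest features were named for place only. Peaks of 1 library are not replicates, so no test was made. Intervals are exact (Clopper-Pearson). Counting was tested on simulated peaks. Computation used pandas 2.3.3, NumPy 2.4.6 and SciPy 1.17.1 under Python 3.11.15, with figures from matplotlib 3.10.9.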

Additional observations from a re-analysis of the deposited data

How the results depend on the processing

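No value had a test or a replicate. No paired analysis was possible because each group has 1 library. Counting any overlap and merging peaks within 1 kb moved none of the values by over 1.5 times. With only peaks at or above the median score, Mycn had 1 peak, against 4 at Myc and 2 at Max, so that Max then stood above Mycn by number. Within 10 kb, 0 of 9 MAX and MLX partners, 5 of 20 cofactors, 5 of 25 growth targets and 0 of 9 other zipper factors had such a peak. The share of all protein-coding genes at that threshold is not given here, so these list counts have no background to be read against. Within 10 kb Mycn and Myc had 2 peaks each and Max 1, with a highest score of 13.8 at Max. Within 500 kb, a window added after the data were seen, the counts were 10 at Mycn, 10 at Myc, 1 at Mycl and 5 at Max. Within 1 kb, 1 of 9 MAX and MLX partners and 1 of 9 other zipper factors had a peak. The counts were 7 of 20 for cofactors and 8 of 25 for growth targets, against 14.8% of all protein-coding genes. Among genes with no more protein-coding neighbours than the member, the share with as many peaks was 18.7% for Mycn, 6.86% for Myc and 33.8% for Max, and without chromosome X 16.9% for Mycn and 32.2% for Max. Reads behind each peak are unknown, so differences between scores have no error.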
